A study of Saccharomyces cerevisiae with 4 samples.

Results

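The 10 genes described here encode enzymes of serine, glycine, homoserine and threonine metabolism in *Saccharomyces cerevisiae*: SER1 (YOR184W), SER2 (YGR208W), SER3 (YER081W), SER33 (YIL074C), GLY1 (YEL046C), CHA1 (YCL064C), HOM2 (YDR158W), HOM3 (YER052C), HOM6 (YJR139C) and THR1 (YHR025W). They were picked by their place in metabolism, with earlier results of these data known. All 10 were found among the 6301 open reading frames (ORFs) listed. Each array compared cDNA of strain S288c after 12 h at limiting nitrogen with cDNA of the same strain in synthetic complete medium. The nitrogen-poor culture was in minimal medium that held 0.025% ammonium sulfate and neither amino acids nor adenine. Cells reached mid log phase at 30 C in the synthetic complete medium before the shift, and a difference in culture age or growth phase cannot be told apart from the medium. RNA was reverse transcribed with a multi-targeted primer (MTP), a degenerate oligonucleotide with sites in most yeast mRNAs, mixed with oligo-dT, and hybridized to spots of PCR-amplified ORFs. The 4 arrays were 2 in each dye orientation: by title, arrays M1 and M2 (replicates 1 and 2) carried minimal medium in Cy5, and arrays S1 and S2 synthetic medium in Cy5. Every value below is a log2 ratio of minimal over synthetic medium, so that a negative value marks a gene meagerly expressed in nitrogen-poor medium. The RNA was bulk RNA, in which less transcript per cell and fewer cells expressing a gene cannot be told apart. A fixed amount of mRNA was reverse transcribed, so each ratio is relative to the rest of the mRNA. The amount of mRNA per cell was not measured.

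Yeast makes serine from the glycolytic intermediate phosphoglycerate through oxidation, transamination and dephosphorylation, and takes glycine from serine, threonine or glyoxylate. Threonine comes from aspartate by way of homoserine, the branch point at which the path to methionine leaves. The genes of amino acid synthesis are generally activated by the transcription factor Gcn4 when amino acids are scarce, and CHA1 is known as a gene induced by serine and threonine in the medium through the activator Cha4. The shift studied here removed both amino acids from the medium together with all others, and limited ammonium.

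All 10 genes were meagerly expressed in nitrogen-poor medium and none was abundantly expressed. After Benjamini-Hochberg adjustment of limma's p-values over 5956 ORFs, 10 of 10 passed 0.05 as lower, against 31.5% of all ORFs tested, and 0 passed as higher, against 33.8%; at an unadjusted p under 0.05 the count of higher genes was also 0. Without any single array, 8 of the 10 still passed as lower, all but SER3 and HOM6. The share of all ORFs that passed in those fits was not counted. Each gene was negative on all 4 arrays, which held for 34.4% of the 5231 ORFs with 4 values. The median of the 10 means was -1.32, compared with 0.03 over all ORFs tested. The decreases were of very different sizes. Mean log2 ratios of 6 of the 10 lay below -1, as did those of 4.77% of all ORFs, whereas HOM6 and SER3 lay close to 0.

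**Figure D1:**
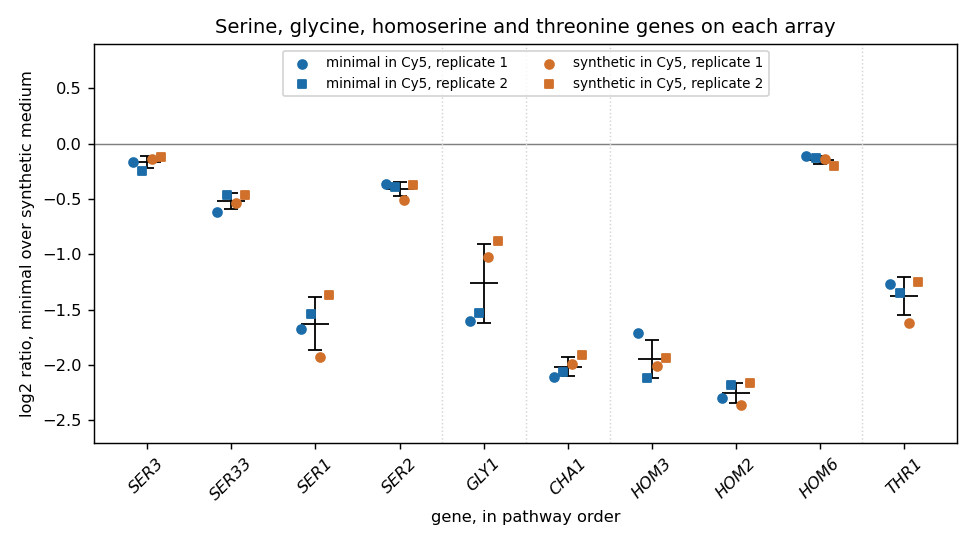
Log2 ratio of minimal over synthetic medium (vertical axis) for each of the 10 genes in pathway order, with 1 point per array; blue marks arrays with minimal medium in Cy5 and orange those with synthetic medium in Cy5 by title, circles replicate 1 and squares replicate 2, and black bars the mean ± SD (n = 4 arrays). All points lie below 0, from -2.36 for HOM2 to -0.11 for HOM6.

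In serine synthesis, the first step is catalyzed by phosphoglycerate dehydrogenase, which the isozyme genes SER3 and SER33 encode. Values of single arrays are given in the order M1, M2, S1, S2. SER3 had log2 ratios of -0.17, -0.24, -0.14 and -0.12. Its mean was -0.17 ± 0.05 (SD, n = 4 arrays), a 1.12-fold decrease with a 95% confidence interval from 1.03- to 1.23-fold (limma, adjusted p = 0.0306). It passed the threshold by a narrow margin, and its adjusted p was above 0.05 with any of the 4 arrays left out, from 0.0510 to 0.150. SER33 had -0.61, -0.47, -0.53 and -0.46, with a mean of -0.52 ± 0.07 (SD, n = 4 arrays), a 1.43-fold decrease (limma, adjusted p = 0.000259). The highest SER33 value lay below the lowest SER3 value, so that the isozyme genes did not overlap.

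Within each array, SER3 exceeded SER33 by 0.22 to 0.45, on average by 0.35 ± 0.10 (SD, n = 4 arrays). An exact two-sided sign-flip permutation test of this difference gave p = 0.13 (0.13 adjusted over 4 pairs of genes), which is the smallest p that 4 arrays allow. Near-identical genes can share signal on spots of whole ORFs, and the part of such sharing in either ratio was not tested.

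SER1 and SER2 encode the later steps, phosphoserine aminotransferase and phosphoserine phosphatase. SER1 had log2 ratios of -1.67, -1.54, -1.93 and -1.37. With a mean of -1.62 ± 0.24 (SD, n = 4 arrays), a 3.08-fold decrease (limma, adjusted p = 1.45e-05), it stood apart from the other serine synthesis genes. SER2 had -0.36, -0.40, -0.51 and -0.38. Its mean of -0.41 ± 0.07 (SD, n = 4 arrays) was a 1.33-fold decrease (limma, adjusted p = 0.000724). All 4 genes of the path were therefore lower, but the highest SER1 array was still 0.75 below the lowest array of SER33, the next of them.

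GLY1 encodes threonine aldolase, which splits threonine into glycine and acetaldehyde. Its log2 ratios were -1.60, -1.53, -1.03 and -0.88, with a mean of -1.26 ± 0.36 (SD, n = 4 arrays), a 2.39-fold decrease (limma, adjusted p = 0.000203). GLY1 had the largest spread among the 10 genes, and it ran with the dyes. Arrays M1 and M2 averaged -1.56 and arrays S1 and S2 -0.96, without overlap. In a limma fit with a dye orientation term this difference of -0.61 had an unadjusted p of 0.00105 and an adjusted p of 0.1251. The term passed an adjusted p of 0.05 for 0 of the 10 genes, against 0.0168% of all ORFs, and an unadjusted 0.05 for 1 of the 10, GLY1, against 22.03% of all ORFs. The decrease itself was present in both orientations.

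CHA1 encodes the catabolic deaminase of serine and threonine, which lets yeast use them as nitrogen sources. It had log2 ratios of -2.11, -2.06, -1.99 and -1.90, a narrow range of 0.20. The mean was -2.01 ± 0.09 (SD, n = 4 arrays), a 4.04-fold decrease with a 95% confidence interval from 3.67- to 4.46-fold (limma, adjusted p = 1.17e-06). Only 65 of the 5956 ORFs tested had a lower mean. Among the 10 genes only HOM2 had a lower mean, with no overlap of arrays. HOM3 and CHA1 overlapped, and HOM3 lay above CHA1 on 1 of the 4 arrays only, M1. On the other arrays it lay below, against the order of the means.

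ILV1 (YER086W) encodes the biosynthetic threonine deaminase, which opens the path to isoleucine. It had log2 ratios of -0.94, -0.88, -0.92 and -0.73, with a mean of -0.87 ± 0.10 (SD, n = 4 arrays; limma, adjusted p = 3.17e-05). Both deaminase genes were lower, and CHA1 lay below ILV1 within each array, by a difference from -1.18 to -1.07 with a mean of -1.15 ± 0.05 (SD, n = 4 arrays; exact two-sided sign-flip permutation p = 0.13, the smallest possible).

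Homoserine is made from aspartate by the products of HOM3, HOM2 and HOM6, in that order. HOM3 encodes aspartate kinase, the committed enzyme that threonine inhibits. Its log2 ratios were -1.71, -2.11, -2.01 and -1.94, and the mean of -1.94 ± 0.17 (SD, n = 4 arrays) was a 3.84-fold decrease (limma, adjusted p = 3.30e-06). HOM2 encodes aspartate semialdehyde dehydrogenase. It had -2.29, -2.18, -2.36 and -2.17, and was the lowest of the 10 genes on every array. Its mean of -2.25 ± 0.09 (SD, n = 4 arrays) was a 4.76-fold decrease with a 95% confidence interval from 4.31- to 5.25-fold (limma, adjusted p = 1.06e-06), and 42 of the ORFs tested lay lower.

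HOM6, for homoserine dehydrogenase, had a far smaller decrease than the genes of the steps before it. It had log2 ratios of -0.11, -0.13, -0.14 and -0.20, with a mean of -0.15 ± 0.04 (SD, n = 4 arrays), a 1.11-fold decrease with a 95% confidence interval from 1.02- to 1.21-fold (limma, adjusted p = 0.0436). The adjusted p was above 0.05 with any of the 4 arrays left out, from 0.0758 to 0.134. HOM6 ranked 2117 of 5956 from the lowest mean, whereas HOM3 ranked 73. Within the 3 genes of homoserine synthesis, the highest array of HOM3 lay 1.51 below the lowest array of HOM6.

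THR1 encodes homoserine kinase, the first step on the threonine side of the branch. It had log2 ratios of -1.27, -1.35, -1.62 and -1.25. The mean of -1.37 ± 0.17 (SD, n = 4 arrays) was a 2.59-fold decrease (limma, adjusted p = 1.21e-05). The next and last step, threonine synthase, is encoded by THR4 (YCR053W), which had 0.59, 0.74, 0.89 and 0.81. At 0.76 ± 0.13 (SD, n = 4 arrays), THR4 was abundantly expressed in nitrogen-poor medium (limma, adjusted p = 9.76e-05). The genes of these consecutive steps thus moved in opposite directions on all 4 arrays. THR4 exceeded THR1 by 1.86 to 2.51 within each array and by 2.13 ± 0.27 on average (SD, n = 4 arrays; exact two-sided sign-flip permutation p = 0.13, the smallest possible).

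On the other side of the branch, MET2 (YNL277W), for homoserine acetyltransferase of methionine synthesis, had 0.02, -0.29, -0.46 and -0.39. Its mean of -0.28 ± 0.21 (SD, n = 4 arrays) passed the threshold (limma, adjusted p = 0.0267), although array M1 lay at 0.02. The call was lost without M2, S1 or S2, but not without M1.

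Ordered by mean log2 ratio, the 10 genes ran HOM2, CHA1, HOM3, SER1, THR1, GLY1, SER33, SER2, SER3 and HOM6. The ranges of neighbours did not overlap at 3 of the 9 steps of this order, namely between HOM2 and CHA1, between GLY1 and SER33 and between SER2 and SER3. The largest step, from GLY1 to SER33, was 0.74 ± 0.33 (SD of the differences within 4 arrays). It parts 6 genes with decreases of 2.39- to 4.76-fold from 4 with decreases of 1.11- to 1.43-fold. CHA1 and HOM3 differed by 0.07 ± 0.22, THR1 and GLY1 by 0.11 ± 0.44 and SER3 and HOM6 by 0.02 ± 0.08 (SD of the differences within 4 arrays each), and none of these pairs kept its order on all 4 arrays. SER1 lay below THR1, and HOM3 below SER1, on every array, with ranges that overlapped between genes.

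**Figure D2:**
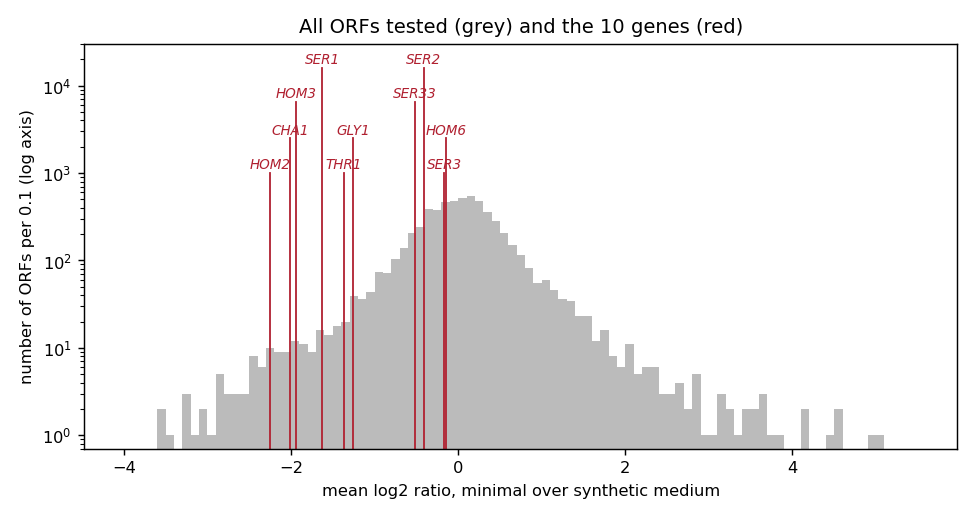
Histogram of the mean log2 ratio of minimal over synthetic medium for the 5956 ORFs tested (grey, number of ORFs per 0.1 on a log axis), with the means of the 10 genes as labelled red lines. HOM2, CHA1, HOM3, SER1, THR1 and GLY1 stand in the lower tail, below -1, and HOM6 and SER3 in the body of the distribution.

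The median of the 10 genes was -1.44 and -1.44 on arrays M1 and M2 and -1.32 and -1.07 on arrays S1 and S2, where the medians of all ORFs with a value were -0.03, -0.03, 0.06 and 0.11. The decreases were thus smallest on S2 by this measure. Every gene lay below the median of its array on each of the 4. The share of all ORFs that did so on all 4 was not counted. HOM2 was the lowest on each array, and the highest was HOM6 on M1 and M2 and SER3 on S1 and S2. The median SD over the arrays was 0.09 for the 10 genes and 0.14 for all ORFs tested. A term for the replicate number passed an adjusted p of 0.05 in limma for 0 of the 10 genes, against 0.0168% of all ORFs, and an unadjusted 0.05 for 0 of the 10, against 0.806% of all ORFs.

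Further genes that use, exchange or control these amino acids were listed with them. Of these 17 genes, 8 were lower, against 31.5% of all ORFs, and 4 higher, against 33.8%, at an adjusted p of 0.05 from limma, and 5 did not pass. Their median log2 ratio was -0.15, compared with 0.03 over all ORFs tested. The dye orientation term in limma passed an unadjusted 0.05 for 6 of these 17 genes, against 22.03% of all ORFs. Among the 6 were SHM2, GCV3, LCB1 and LCB2, which were called lower and were negative on every array. THR4, MET2 and ILV1 have been described above. Among the genes whose enzymes consume serine, CYS4 (YGR155W), for the cystathionine synthase that joins serine to homocysteine, was lower at -1.10 ± 0.13 (SD, n = 4 arrays). LCB1 (YMR296C) and LCB2 (YDR062W), for the subunits of serine palmitoyltransferase in sphingolipid synthesis, were lower at -1.02 ± 0.20 and -0.29 ± 0.18 (SD, n = 4 arrays each), and the call of LCB2 was lost without array M2. CHO1 (YER026C), for phosphatidylserine synthase, was higher at 1.29 ± 0.08 (SD, n = 4 arrays; limma, adjusted p = 5.28e-06). Genes for users of serine lay on both sides of 0.

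Serine and glycine are interconverted by serine hydroxymethyltransferases, of which SHM2 (YLR058C) encodes the cytosolic and SHM1 (YBR263W) the mitochondrial enzyme. SHM2 had log2 ratios of -1.30, -1.19, -1.63 and -1.95, with a mean of -1.52 ± 0.34 (SD, n = 4 arrays; limma, adjusted p = 7.25e-05). SHM1 had -0.10, 0.00, 0.00 and -0.49, and did not pass the test at -0.15 ± 0.23 (SD, n = 4 arrays; limma, adjusted p = 0.208). SHM2 lay below SHM1 on every array, by a mean difference of -1.38 ± 0.21 (SD, n = 4 arrays; exact two-sided sign-flip permutation p = 0.13, the smallest possible). AGX1 (YFL030W), for the aminotransferase that makes glycine from glyoxylate and alanine, went the other way. It had no value on array M1 and 2.11, 1.98 and 2.18 on the others, a mean of 2.09 ± 0.10 (SD, n = 3 arrays; limma, adjusted p = 6.15e-06) and a 4.26-fold increase. The genes whose enzymes can form glycine thus stood at -1.52 for SHM2, -1.26 for GLY1, -0.15 for SHM1, which did not pass, and 2.09 for AGX1.

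The glycine cleavage complex breaks glycine down in mitochondria to one-carbon units and ammonium. Of its 4 genes, 2 were called lower, against 31.5% of all ORFs, and none higher, against 33.8%. GCV3 (YAL044C), for its lipoyl carrier protein, was at -1.47 ± 0.38 (SD, n = 4 arrays) and GCV1 (YDR019C), for the aminomethyltransferase, at -0.996 ± 0.29 (SD, n = 3 arrays), and both passed the test as lower. GCV2 (YMR189W), for the decarboxylase, at -0.03 ± 0.21 and LPD1 (YFL018C), for a dehydrogenase subunit shared with pyruvate dehydrogenase, at 0.02 ± 0.13 (SD, n = 4 arrays each) did not pass, with adjusted p-values of 0.743 and 0.818 from limma.

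Of the 3 regulators listed, GCN4 (YEL009C) had log2 ratios of 0.16, 0.34, 0.38 and 0.43 and was higher at 0.33 ± 0.12 (SD, n = 4 arrays; limma, adjusted p = 0.00407). Gcn4 is controlled largely at translation, which these arrays did not measure. CHA4 (YLR098C) had -0.15, -0.05 and 0.45 on the 3 arrays with a value, and its mean of 0.08 ± 0.32 did not pass (limma, adjusted p = 0.588). FPR1 (YNL135C), for the prolyl isomerase that binds aspartate kinase, lay at 0.02 ± 0.19 (SD, n = 4 arrays; limma, adjusted p = 0.882).

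**Figure D3:**
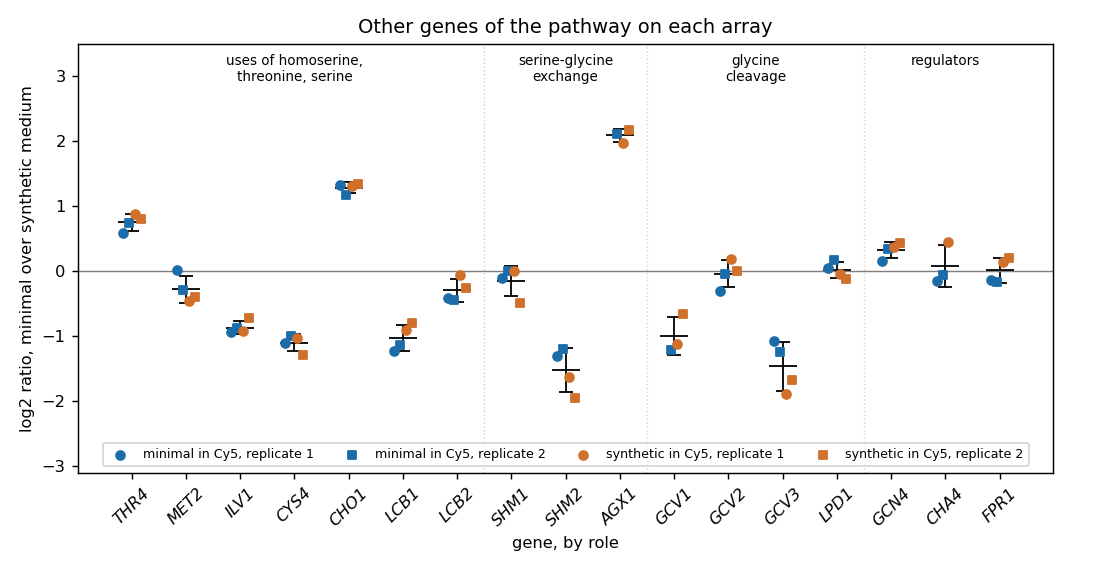
Log2 ratio of minimal over synthetic medium (vertical axis) for the 17 other pathway genes, grouped by role, with 1 point per array; colours and shapes mark dye orientation and replicate, and black bars the mean ± SD (n = 4 arrays, and 3 for AGX1, GCV1 and CHA4). AGX1, CHO1, THR4 and GCN4 lie above 0 on every array with a value, whereas SHM2, GCV3, GCV1, CYS4, ILV1, LCB1 and LCB2 lie below.

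**Figure D4:**
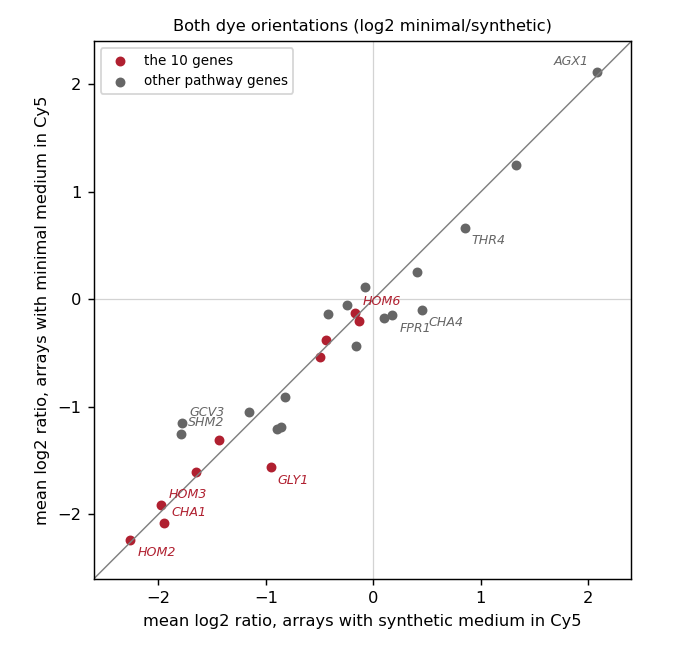
Mean log2 ratio of minimal over synthetic medium on the arrays with minimal medium in Cy5 (vertical axis) against that on the arrays with synthetic medium in Cy5 (horizontal axis) for the 10 genes (red) and the 17 other pathway genes (grey), with the line of equal values. Among the 10 genes, GLY1 lies farthest from the line, at -1.56 against -0.96.

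The genes next to the 10 on the chromosomes gave a measure of how far the decreases were shared with their surroundings. In the order of protein-coding genes in the R64 gene table, the 10 genes had 20 direct neighbours, none of which overlapped them. All 20 were tested; 10 were lower, against 31.5% of all ORFs, 2 higher, against 33.8%, and 8 did not pass, with a median log2 ratio of -0.14 compared with 0.03 over all ORFs tested. HOM2, the lowest of the 10, stood between YDR157W at -0.02 and SAC3 (YDR159W) at 0.17, neither of which passed (limma, adjusted p = 0.812 and 0.296). CHA1 stood between HMLALPHA1 (YCL066W), which was lower at -0.62 (limma, adjusted p = 0.000167), and VAC17 (YCL063W) at -0.10, which did not pass. Whether the HMLALPHA1 spot also read transcript of near-identical genes elsewhere was not tested, so its value may not be one of the surroundings of CHA1. HOM3 stood between JHD1 (YER051W), lower at -0.16 (limma, adjusted p = 0.0400), and PIC2 (YER053C), the neighbour with the highest ratio at 1.15. SER1 stood between FYV12 (YOR183W), the neighbour with the lowest ratio at -1.28 (limma, adjusted p = 2.78e-05), and GSP2 (YOR185C) at -0.01, which did not pass. THR1 stood between MAS2 (YHR024C), lower at -0.98 (limma, adjusted p = 0.000345), and VMA16 (YHR026W) at -0.13, which did not pass. For GLY1 both neighbours were lower, FRD1 (YEL047C) at -0.46 and IES6 (YEL044W) at -0.42 (limma, adjusted p = 0.000592 and 0.000943). So were both neighbours of HOM6, IML1 (YJR138W) at -0.35 and HIR3 (YJR140C) at -0.20 (limma, adjusted p = 0.0136 and 0.0278). These neighbours are named because of their values.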

How the data were processed

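The authors grew S288c in both media, labeled cDNA reciprocally with Cy3 and Cy5, scanned the arrays with a GenePix scanner, corrected for background, scaled the arrays by the mean over spots that were well measured, and deposited 1 log2 ratio for each ORF on each array. Titles and channel descriptions disagree on which medium carried which dye; both give the same pairs of arrays. The direction, minimal over synthetic medium, was taken from the study's table of levels in each medium, with which all 4 arrays correlated positively. No intensities were used, so the number of arrays limits the precision. The arrays stem from separate reverse transcriptions, and the number of cultures is not given in the sources used here; p-values may measure technical spread only.

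ORFs with values on at least 3 arrays (5956 of 6301) were fitted with limma 3.58.1 in R 4.3.3, testing the mean log2 ratio against 0 with moderated variances, two-sided, with Benjamini-Hochberg adjustment and a threshold of 0.05. The study's Bayesian program (BAGEL) was not run. Pairs of genes were compared by an exact sign-flip permutation test over arrays. The fit was tested on simulated data with independent noise and shifts far larger than the decreases of SER3 and HOM6. Decreases as small as those were not covered by the simulation. Symbols came from the R64 gene table, which holds 5801 of the ORFs. Same-numbered arrays did not deviate together (r = 0.01 over 5231 ORFs), so the replicate number was used only in an alternative. Alternatives left out each array, centred, scaled or quantile normalized the arrays, added dye or replicate terms, averaged arrays, and changed the ORFs kept, the variance or the threshold. All 10 genes are named with every value; other genes are named from the pathway list, and neighbours after their values were seen. The genes, lists and tests were chosen with earlier results of these data known. Promoter motifs and protein sequences were planned and not analysed here.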

Additional observations from a re-analysis of the deposited data

Results flagged for a closer look

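No array value of the 10 genes stood far from the rest. Among the 24 genes with 4 values, CHO1 had 1 array apart, with a gap to the nearest value of 0.831 of its range, just past the 95% limit; its values were 1.32, 1.17, 1.32 and 1.34, and chance flags about 1 in 20 such groups.

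For 4 of the other pathway genes, the arrays of opposite dye orientation had opposite signs. FPR1 had -0.14 and -0.16 on arrays M1 and M2 against 0.15 and 0.21 on S1 and S2, a difference of -0.327. GCV2 had -0.30 and -0.04 against 0.20 and 0.01, a difference of -0.272. LPD1 had 0.05 and 0.18 against -0.04 and -0.11, a difference of 0.194. CHA4 had -0.15 and -0.05 against a single value of 0.45, a difference of -0.549. In the limma fit with a dye term none of these passed, with adjusted p-values from 0.134 to 0.299, and none of the 4 genes was called lower or higher between the media.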

How the results depend on the processing

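Under 14 alternative fits, none of the 10 genes changed direction, and 129 of 140 gene and fit combinations kept the call. The 11 that lost it were all of SER3 and HOM6. With the replicate block, which a shared number alone does not justify as a pairing, SER3 at -0.17 had an adjusted p of 0.0738 and HOM6 at -0.15 one of 0.0979, both from limma, and no other call among the 10 changed. After quantile normalization HOM6 was at -0.14 (limma, adjusted p = 0.0709). Leaving out single arrays gave -0.18 to -0.14 for SER3 and -0.16 to -0.13 for HOM6, none past the threshold; the cause was not tested. The number of the 10 genes called lower was 8 in each fit without an array and in the replicate block, and 9 after quantile normalization. It was also 8 at a threshold of 0.01, which 24.6% of all ORFs passed as lower, and 10 at the study's kind of threshold, an unadjusted one-sided p, which 36.0% passed as lower. The median of the 10 genes ran from -1.40 to -1.27. Of the 17 other pathway genes, 5 were called lower with each gene's own variance, against 8 with moderated variances. Under the other alternatives 6 to 8 were called lower, and 3 or 4 were called higher under any alternative. The share of all ORFs called lower was counted for the changed thresholds but not for the alternative fits. A change in these counts between fits therefore cannot be read as particular to the genes. The pair differences kept their sign in each orientation and without any array.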
